A study of Mus musculus with 4 samples.

Results

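The core autophagy machinery was followed as 35 genes, named by symbol and chosen for their role in building the autophagosome, out of the 24421 gene symbols measured in mouse epididymal adipose tissue. All 35 symbols were found, and all 35 passed the filter on low values that left 14106 genes for testing. The tissue came from wild-type (WT) male C57BL/6J mice in 2 groups, both followed to 24 weeks of age with a total of 14 weeks on a high-fat diet (HFD). In the weight cycling group (WC1) HFD began at 8 weeks of age and lasted 8 weeks, before a return to standard diet (SD) for 2 weeks and a second HFD period of 6 weeks. The control group (Ctrl) ate HFD without a break from 10 weeks of age, so that WC1 differed from Ctrl both in the SD interval and in the age at which HFD began. Each group had 2 poly(A) RNA-seq libraries. The labels do not say whether each library came from 1 animal, so p-values measure only the spread between these libraries.

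Autophagy carries portions of cytoplasm, damaged organelles and tagged proteins to the lysosome inside a double membrane, the autophagosome. A kinase complex built on ULK starts the process, a lipid kinase marks the membrane, lipid carriers extend it, and ubiquitin-like proteins of the ATG8 family are attached to its lipid and hold receptors that bring in cargo. In adipose tissue the pathway is known to work in adipocyte differentiation, in the removal of mitochondria from beige adipocytes and in the lipid handling of macrophages. Transcript levels of its genes do not measure flux through it.

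In WC1, 3 of the 35 genes were higher than in Ctrl and 4 were lower. Optn, Map1lc3a and Wipi1 rose, by 58.5%, 53.3% and 44.3%. Sqstm1 fell by 31.5%, Gabarap fell by 26.9%, Atg5 fell by 24.0% and Gabarapl1 fell by 20.9%. The changes ran in both directions inside the ATG8 family and inside the cargo receptors, where one member rose while the most abundant member fell.

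Levels are given as CPM, reads scaled to a library size that the authors had adjusted per library, and changes as the log2 fold change of CPM + 1, WC1 minus Ctrl, with its standard error (SE). A gene was called where the limma test adjusted over all tested genes gave p under 0.05. By that rule 17.9% of all tested genes were called, 10.2% higher and 7.71% lower, beside 20% of the autophagy genes, so that their share of calls was near the background. No autophagy gene passed a 2-fold change, which 4.31% of all tested genes did. The median size of the log2 change, without its sign, was 0.155 over the autophagy genes and 0.209 over all tested genes, and the signed medians were -0.03 and -0.02. The 2 Ctrl and the 2 WC1 values did not overlap for 23 of the 35 genes (65.7%), 11 of them higher and 12 lower in WC1, beside 69.3% of all tested genes (32.7% higher, 36.6% lower). An exact permutation test of any single gene cannot go below 0.33 with 2 libraries against 2.

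**Figure D1:**
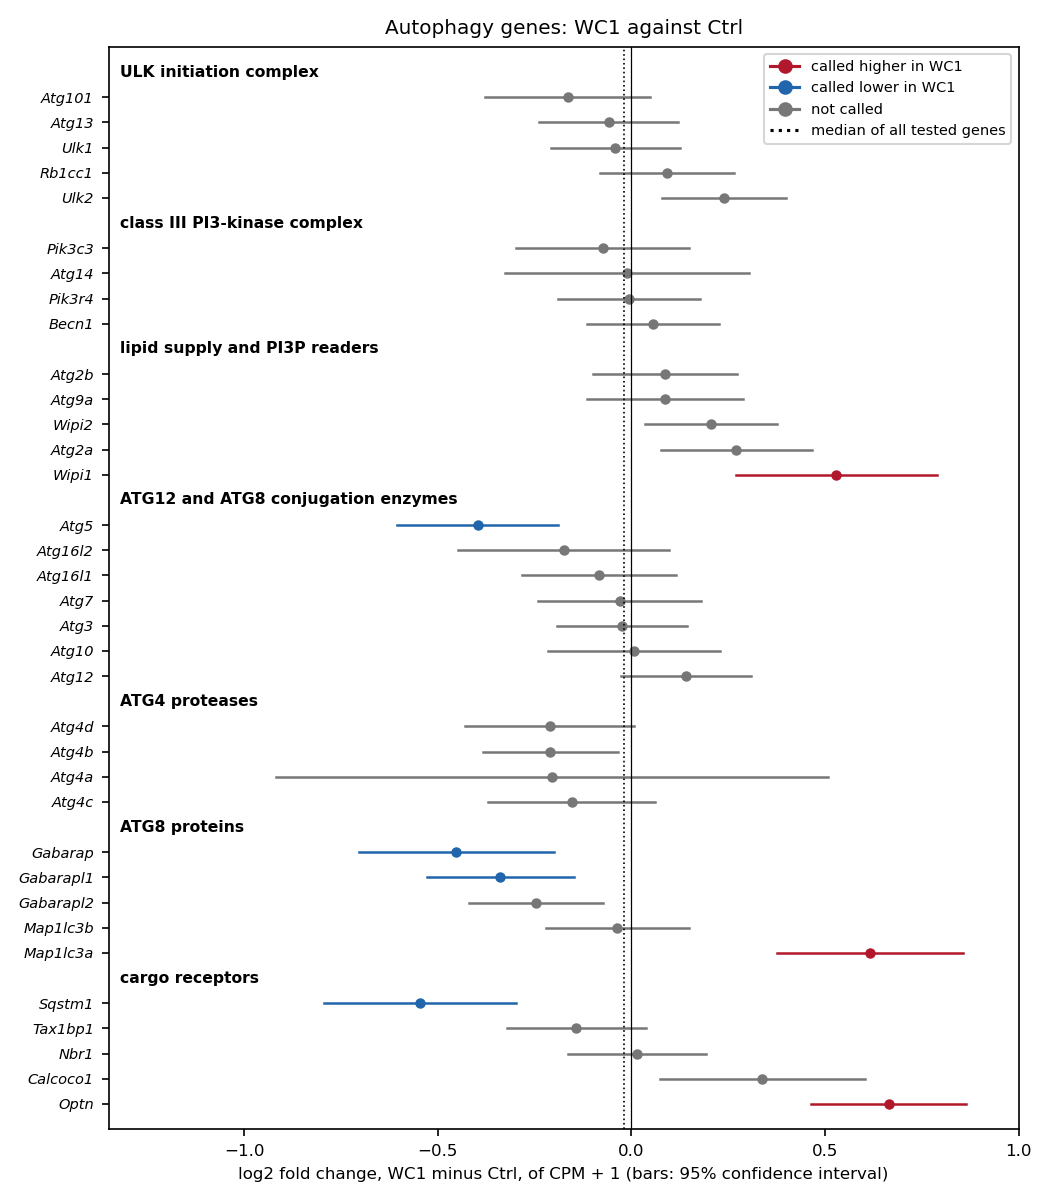
Log2 fold change of CPM + 1, WC1 minus Ctrl, for each of the 35 autophagy genes, grouped by role, with the 95% confidence interval of the limma model as bars, genes called higher in red, genes called lower in blue and genes not called in grey. The 5 lipid supply and PI3P reader genes lie to the right of 0 and the 4 ATG4 proteases to the left, while the ATG8 proteins and the cargo receptors each hold both a red and a blue gene.

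The calls were lost when either Ctrl library was left out, while the changes kept their direction and about their size. Without Ctrl 1 and without Ctrl 2 the log2 change was -0.55 and -0.55 for Sqstm1, 0.61 and 0.72 for Optn and -0.31 and -0.37 for Gabarapl1. In such a fit the spread is estimated from the WC1 pair alone, and the lone Ctrl library is assumed to vary like it. Without Ctrl 1, and likewise without Ctrl 2, limma called 0 of the 35 genes, with 5 and 8 at an unadjusted p under 0.05, and it called 6 and 12 genes in the whole matrix. Without WC1 1 and without WC1 2 the log2 change was -0.60 and -0.49 for Sqstm1, 0.71 and 0.62 for Optn and -0.37 and -0.31 for Gabarapl1. Calls in these fits rest on the spread of the Ctrl pair alone, and without WC1 1 they rose across the whole matrix. In the TPM matrix, which corrects for transcript length and sums to the same total in every library, 7 autophagy genes were called higher (Ulk2, Atg2a, Wipi1, Wipi2, Atg12, Map1lc3a and Optn) and 1 was called lower (Sqstm1), and 77.9% of all called genes were higher beside 57.0% in CPM. The median log2 change of all tested genes was 0.10 in TPM, so that a gene at 0.10 there was at the middle of the matrix. Up to a factor per library, the TPM and CPM of each of the 35 genes kept a constant ratio to within 0.972%, so that the TPM matrix with those factors divided out, an alternative chosen after seeing the data, returns the CPM changes of these genes by construction.

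Recovered reads came to between 61465029 and 90965297 per library. The tissue label was checked against 12 adipocyte markers, whose summed level was 11160 and 12650 CPM in Ctrl and 20290 and 26000 CPM in WC1, with 9 of 12 markers called higher. Macrophage markers moved the other way, from 13170 and 12090 CPM in Ctrl to 7871 and 5618 CPM in WC1, with 7 of 12 called lower. Of the 8 endothelial markers 5 were called higher (469 and 516 CPM in Ctrl, 882 and 1145 CPM in WC1), and of the 8 mast cell markers 7 were called lower (563 and 623 CPM, then 84.5 and 66.6 CPM). Of the 10 markers of lipid-associated macrophages 3 were called lower, with a median log2 change of -0.91. Without overlap between the groups 8 were lower and 1 higher. The list summed to 25880 and 23760 CPM in Ctrl and to 21740 and 17900 CPM in WC1. It shares Lpl and Fabp5 with adipocytes, and Lpl alone held 9430 and 9130 CPM in Ctrl and 10770 and 11380 CPM in WC1. Of the 10 fibroblast and progenitor markers 3 were called lower, and of the 7 mesothelial and the 7 T and NK cell markers tested 0 were called by limma, edgeR or DESeq2, with 0 and 1 at an unadjusted p under 0.05 in limma. B cell markers summed to 4.47 and 2.59 CPM in Ctrl and 7.47 and 26.9 CPM in WC1, neutrophil markers to 8.19 and 5.71 then 12.7 and 18.9 CPM, and skeletal muscle markers to 7.09 and 9.34 then 18.5 and 18.1 CPM, each with 1 marker called higher. Erythroid markers summed to 208.5 and 342 then 456 and 491 CPM, but their globin genes are near-identical copies whose values are uncertain, with a log2 change of 4.85 for Hba-a1 and -3.49 for Hba-a2. Brown and beige adipocyte markers, with 1 called higher and 1 lower, summed to at most 18.9 CPM in any library and epididymis markers to at most 3.02 CPM, with Pax5, Retnlg, Cxcr2, Mpo, Myh4, Ckm, Tnnt3, Ucp1, Lcn5, Lcn8, Defb48, Crisp1 and Spink8 at or near 0. In bulk tissue, fewer cells of a type and less RNA per cell cannot be told apart. The adipocyte and endothelial lists were higher in WC1, and the macrophage, lipid-associated macrophage and mast cell lists lower. These are the libraries in which the 7 called genes changed, and the part of the marker lists in those results was not tested.

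In the ULK initiation complex, which receives signals of nutrient and energy state, 0 of 5 genes were called by limma and by edgeR, and 1 of the 5, Ulk2, had an unadjusted p under 0.05 and was called by DESeq2. Ulk2, one of the complex's interchangeable kinases, at 87.4 and 88.2 CPM in the Ctrl libraries and at 103 and 105 CPM in the WC1 libraries. Both WC1 values were above both Ctrl values, and the log2 change of 0.24 ± 0.06 (SE, 95% interval 0.08 to 0.40) had an adjusted p of 0.059, with calls in 5 of 17 alternatives. Ulk1, the other kinase, differed by -0.04 on the log2 scale, with an interval from -0.21 to 0.12. Of the 2 kinases' TPM, Ulk2 held 56.8% and 56.7% in the Ctrl libraries and 61.6% and 61.3% in the WC1 libraries. The scaffold Rb1cc1 (FIP200) had a log2 change of 0.09, and the regulatory subunits Atg13 and Atg101 had -0.06 and -0.16.

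In the class III PI3-kinase complex, which makes the lipid PI3P on the forming membrane, 0 of 4 genes were called by limma, edgeR or DESeq2, and 0 had an unadjusted p under 0.05. The catalytic subunit Pik3c3 (VPS34), which had the smallest p of the complex, was at 37.7 and 33.4 CPM in the Ctrl libraries and at 34.0 and 33.3 CPM in the WC1 libraries. These values overlapped, and the log2 change was -0.07 ± 0.09 (SE, adjusted p = 0.57, 95% interval -0.30 to 0.15). The log2 changes were 0.06 for Becn1, the regulatory scaffold, -0.01 for Pik3r4 (VPS15), the kinase that anchors the complex, and -0.01 for Atg14, which directs it to autophagy. All 4 changes thus lay between -0.07 and 0.06, and their intervals between -0.33 and 0.30. In the annotation Becn1 shares 43.9% of its exon bases with Cntd1 on the opposite strand, and Cntd1 did not exceed 1.048 CPM.

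The genes of lipid supply and PI3P reading all had positive log2 changes in CPM, from 0.09 to 0.53, as did 6655 of the 14106 tested genes. The intervals of Atg2b and Atg9a covered 0, and the groups of Atg9a overlapped. In TPM the changes ran from 0.20 to 0.67, but there each gene is raised by nearly the same amount, so TPM is no second reading. Of the 5 genes 1 was called. That gene was Wipi1, a protein that binds PI3P on the forming membrane. Wipi1 was at 23.6 and 23.1 CPM in the Ctrl libraries and at 31.5 and 37.0 CPM in the WC1 libraries. The groups did not overlap, although the WC1 libraries lay farther apart than the Ctrl libraries, with means of 34.3 ± 3.86 CPM (SD, n = 2) and 23.4 ± 0.301 CPM (SD, n = 2). The log2 change was 0.53 ± 0.10 (SE) with an adjusted p of 0.032, which ranged from 0.000788 to 0.207 over 17 alternatives.

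Wipi2, the paralog that recruits the ATG16L1 complex, had a log2 change of 0.21 (adjusted p = 0.090, 95% interval 0.04 to 0.38) and was not called. In TPM, Wipi1 made up 42.8% and 43.4% of the WIPI pair in Ctrl but 47.3% and 50.6% in WC1, so that the pair was nearly even in WC1 2. Atg2a and Atg2b, which carry lipid into the growing membrane, had log2 changes of 0.27 (adjusted p = 0.067) and 0.09. Atg2a was called higher by DESeq2 (adjusted p = 0.042) and by limma with the replicate block (0.0499) but not by edgeR (0.061). Atg9a, the lipid scramblase of the seed vesicles, had 0.09. It shares 31.8% of its exon bases with Gm29253 on the same strand, and reads on the shared part could have gone to either.

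Among the 7 genes that conjugate ATG12 and the ATG8 proteins, 1 was called, and it was lower. Atg5, the acceptor of ATG12 in the complex that attaches ATG8 proteins to lipid, was at 40.3 and 39.9 CPM in the Ctrl libraries and at 31.7 and 28.8 CPM in the WC1 libraries. Both WC1 values lay well under the Ctrl pair, whose members differed by less than 1 CPM. On the log2 scale the change was -0.40 ± 0.08 (SE) with an adjusted p of 0.036, which ranged from 0.00452 to 0.242 over 17 alternatives. In TPM the log2 change was -0.26 with an adjusted p of 0.067, and the call was lost.

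The partner of Atg5 in the conjugate, Atg12, had a log2 change of 0.14 (adjusted p = 0.19). The TPM of Atg5 per TPM of Atg12 was 0.449 and 0.433 in Ctrl but 0.310 and 0.292 in WC1. Atg7, the activating enzyme shared by both conjugation reactions, had -0.03, and the carrier enzymes Atg3 and Atg10 had -0.02 and 0.01. Atg16l1, which places the complex on the membrane, and its relative Atg16l2 had -0.08 and -0.18. The other 6 enzymes of the group were thus spread from -0.18 to 0.14, and Atg5 stood outside that range.

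Promoter windows from 250 bases before to 50 bases after the annotated start (RefSeq, GRCm38.p6) were matched for 29 of the 35 genes. Those not matched were Atg12, Atg16l1, Becn1, Map1lc3a, Pik3c3 and Rb1cc1. Both strands were searched for 4 sets of letters linked to regulators of autophagy genes. The E-box CACGTG was in the windows of Atg3, Atg5, Atg7 and Atg14 and in 7.15% of all 32851 windows. The longer CLEAR core TCACGTGA, which contains an E-box, was in the window of Atg3 and in 0.974% of all windows. The antioxidant response core TGACNNNGC was in Atg13, Map1lc3b, Tax1bp1 and Ulk2 and in 12.4% of all windows, and the forkhead element GTAAACA was in 0 of the 29 and in 3.65% of all windows. Of the 6 called genes with a window, Atg5 was the only one in which any of these letters were found, and the 250 bases before its start are shown for that reason with the E-box in capitals (chr10:44268089-44268338, plus strand). The E-box begins 14 bases before the start.
Atg5: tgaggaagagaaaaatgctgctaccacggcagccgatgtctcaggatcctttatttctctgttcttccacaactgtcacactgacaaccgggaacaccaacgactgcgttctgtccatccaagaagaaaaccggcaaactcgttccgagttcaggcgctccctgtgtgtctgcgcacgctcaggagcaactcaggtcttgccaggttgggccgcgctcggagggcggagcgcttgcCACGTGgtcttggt

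The ATG4 proteases trim newly made ATG8 proteins and later release them from lipid. All 4 had negative log2 changes, from -0.21 to -0.15 in CPM and also in TPM. In CPM 7451 of the 14106 tested genes were negative. None of the 4 was called by limma, edgeR or DESeq2, although 1 was under 0.05 in limma before adjustment. That protease was Atg4b, the most abundant per length, at 45.2 and 46.4 CPM in the Ctrl libraries and at 40.1 and 38.9 CPM in the WC1 libraries. Its groups did not overlap, and the log2 change was -0.21 ± 0.07 (SE, adjusted p = 0.092, 95% interval -0.38 to -0.03). Atg4c and Atg4d had -0.15 and -0.21. Atg4a was the least abundant of all 35 genes, with means of 1.77 and 1.49 CPM, and its interval from -0.92 to 0.51 was the widest of the 35. Without WC1 1 its log2 change was -0.59 and it was called lower (adjusted p = 0.044). Atg4d shares 19.3% of its exon bases with Kri1 on the opposite strand, which reached 40.9 CPM.

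The ATG8 family splits into the LC3 branch (Map1lc3a and Map1lc3b) and the GABARAP branch (Gabarap, Gabarapl1 and Gabarapl2). ATG4 cuts each protein behind a glycine near its end, and this glycine is then joined to the membrane lipid. The last 36 coding bases of the 3 GABARAP members, stop codon included, are shown because they carry this cut site, with the glycine codon in capitals. They lie in GRCm38 at chr11:69994489-69994524 (Gabarap), chr6:129541132-129541167 (Gabarapl1) and chr8:111952370-111952405 (Gabarapl2), all on the plus strand.
Gabarap: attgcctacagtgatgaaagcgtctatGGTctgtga
Gabarapl1: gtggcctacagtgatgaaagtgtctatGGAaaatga
Gabarapl2: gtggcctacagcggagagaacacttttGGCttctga

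In each of these 3 members 1 residue follows the glycine. The coding sequences of Gabarap and Gabarapl1 were identical at 74.9% of aligned bases, and those of Map1lc3a and Map1lc3b at 74.7%. No stretch longer than 17 bases was identical between any 2 of the 5, and none of the 7 called genes had a near copy (at least 95% identity over at least 100 bases) among the annotated transcripts.

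Map1lc3a rose in WC1 while Gabarap and Gabarapl1 fell, which was the widest spread within any role group apart from the cargo receptors. Map1lc3a, an LC3 protein, was at 74.4 and 78.9 CPM in the Ctrl libraries and at 110 and 127 CPM in the WC1 libraries. The groups did not overlap and had means of 76.7 ± 3.18 and 118 ± 12.04 CPM (SD, n = 2 each). The log2 change was 0.62 ± 0.09 (SE) with an adjusted p of 0.023, which ranged from 1.5e-05 to 0.183 over 17 alternatives. Map1lc3b, the LC3 protein most used as an autophagosome marker, had a log2 change of -0.04 with an interval from -0.22 to 0.15, and its sign turned to 0.10 in TPM.

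Gabarap was the most abundant of the 35 genes per length, at 905 TPM on average. It was at 587 and 583 CPM in the Ctrl libraries and at 454 and 403 CPM in the WC1 libraries. The Ctrl libraries nearly coincided, and both WC1 libraries lay below them, with WC1 2 the lower. On the log2 scale the change was -0.45 ± 0.10 (SE) with an adjusted p of 0.041, which ranged from 0.000227 to 0.298 over 17 alternatives. In TPM the change was -0.31 with an adjusted p of 0.076, and the call was lost there.

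Gabarapl1 was at 277 and 266 CPM in the Ctrl libraries and at 219 and 210 CPM in the WC1 libraries. Again the groups did not overlap, and here the spread within each was alike, with means of 271.5 ± 8.195 and 214.5 ± 6.19 CPM (SD, n = 2 each). The log2 change was -0.34 ± 0.07 (SE) with an adjusted p of 0.041, which ranged from 0.00333 to 0.315 over 17 alternatives. In TPM it was -0.20 with an adjusted p of 0.097, and this call too was lost. Gabarapl1 shares 28.3% of its exon bases with 1700101I11Rik on the opposite strand, which did not exceed 0.395 CPM. Gabarapl2, the last GABARAP protein, had a log2 change of -0.25 (adjusted p = 0.064, 95% interval -0.42 to -0.07) and was not called.

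**Figure D2:**
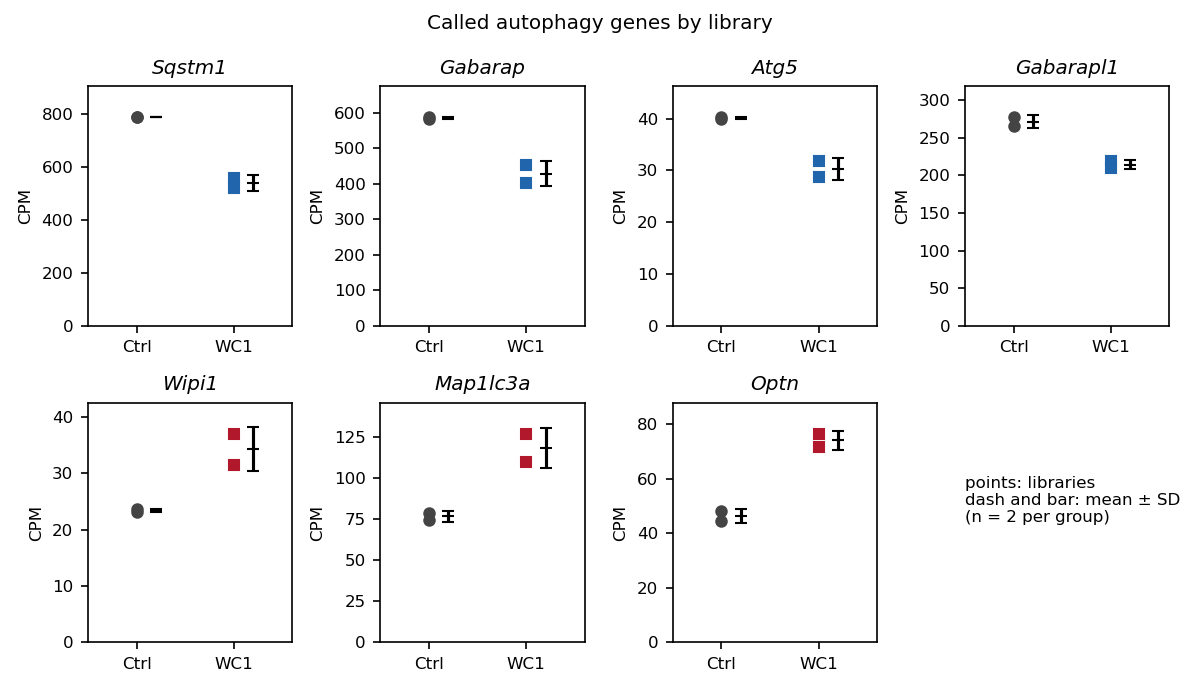
CPM of the 7 called autophagy genes in each of the 4 libraries, with circles for Ctrl, squares for WC1 (blue for genes called lower, red for genes called higher) and a dash and bar for the mean ± SD of each group (n = 2). Every axis starts at 0. In each panel the WC1 pair lies apart from the Ctrl pair, and for 6 of the 7, all but Gabarapl1, the WC1 pair is spread more widely.

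As a share of the TPM of the 5 ATG8 genes, Map1lc3a took 7.501% and 7.99% in Ctrl but 12.9% and 15.4% in WC1. Gabarap took 55.1% and 55.0% in Ctrl but 49.6% and 45.7% in WC1, and it remained the largest member in all 4 libraries. The whole family summed to 1814 and 1823 TPM in Ctrl and to 1698 and 1694 TPM in WC1. The TPM of Map1lc3a per TPM of Gabarap was 0.136 and 0.145 in Ctrl but 0.260 and 0.338 in WC1, a ratio of group means of 2.12. A share or ratio within a library does not depend on the library's scaling, but it shows only that members changed unequally. No test was run on the shares, whose smallest exact p in this design is 0.33.

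**Figure D3:**
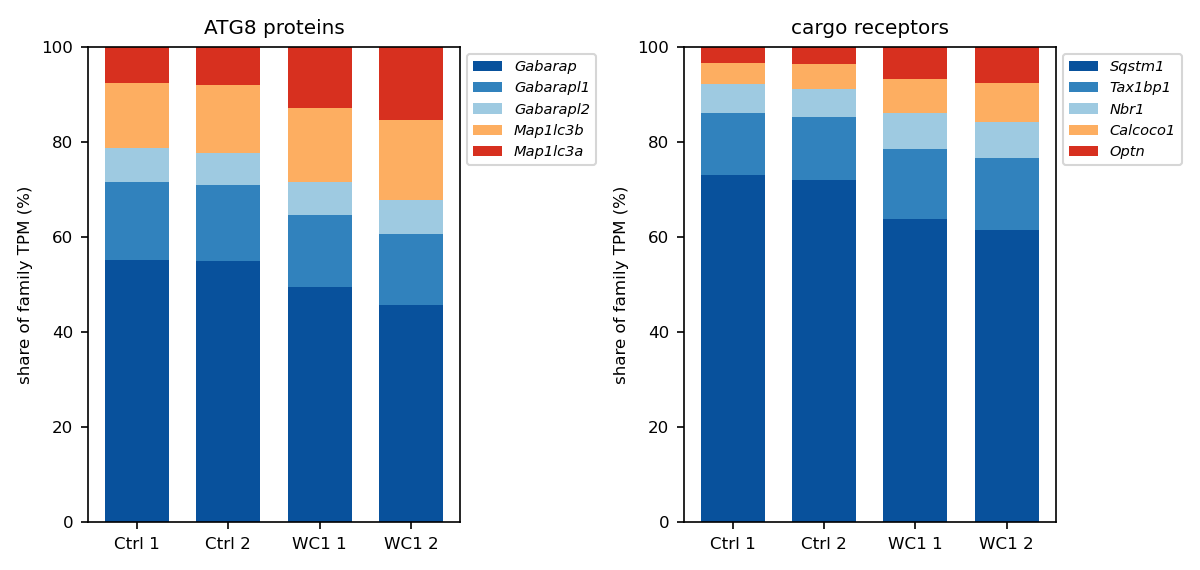
Share of the family's TPM (%) held by each gene in each library, for the 5 ATG8 genes on the left and the 5 cargo receptors on the right. Map1lc3a grows from 7.501% and 7.99% in Ctrl to 12.9% and 15.4% in WC1 as Gabarap shrinks, and Sqstm1 goes from 73.2% and 72.1% in Ctrl to 63.7% and 61.6% in WC1.

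Cargo receptors bind ubiquitin or other tags on their cargo and hold it to ATG8 proteins through a short LC3-interacting core. The cores of the 2 called receptors are shown with their flanks and with the 4 core codons in capitals. That of Sqstm1 (chr11:50202532-50202567 in GRCm38, minus strand) encodes residues 340 to 343 of 442, and that of Optn (chr2:5045987-5046022, minus strand) encodes residues 188 to 191 of 584.
Sqstm1: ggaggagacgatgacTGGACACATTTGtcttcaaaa
Optn: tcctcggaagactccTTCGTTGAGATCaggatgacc

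Optn rose and Sqstm1 fell, and these were the largest changes in each direction among the 35 genes. Optn (optineurin), a receptor for damaged mitochondria and bacteria, was at 44.5 and 48.1 CPM in the Ctrl libraries and at 71.6 and 76.4 CPM in the WC1 libraries. The gap between the groups was several times the spread within either, with means of 46.3 ± 2.54 and 74.0 ± 3.44 CPM (SD, n = 2 each). On the log2 scale the change was 0.66 ± 0.08 (SE) with an adjusted p of 0.016, which ranged from 1.08e-07 to 0.15 over 17 alternatives.

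Sqstm1 (p62), the receptor of ubiquitin-tagged proteins that is itself degraded by autophagy, was at 789 and 788 CPM in the Ctrl libraries and at 561 and 520 CPM in the WC1 libraries. The Ctrl libraries differed by under 1 CPM and the WC1 pair lay far below them, with means of 788.5 ± 0.349 and 540.2 ± 28.8 CPM (SD, n = 2 each). The log2 change was -0.55 ± 0.10 (SE) with an adjusted p of 0.028, which ranged from 1.9e-07 to 0.258 over 17 alternatives, and the call stood in TPM (-0.40, adjusted p = 0.035). Sqstm1 shares 17.3% of its exon bases with Mrnip on the opposite strand, which is listed under an older symbol and did not exceed 5.10 CPM. The libraries were directional, but the sources used here do not give the strand setting of the read counting.

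The remaining receptors were not called by limma or edgeR. Calcoco1, a receptor for the endoplasmic reticulum and the Golgi, had a log2 change of 0.34 (adjusted p = 0.081, 95% interval 0.07 to 0.60), and it was called higher by DESeq2 (adjusted p = 0.038), with the replicate block (0.031) and without WC1 1 (0.024). Tax1bp1, which takes part in the clearance of protein aggregates, had -0.14, and Nbr1, a partner of Sqstm1, had 0.02. Per length, Sqstm1 made up 73.2% and 72.1% of the TPM of the 5 receptors in Ctrl but 63.7% and 61.6% in WC1, while Optn made up 3.44% and 3.66% and then 6.76% and 7.54%. The TPM of Optn per TPM of Sqstm1 went from 0.0470 and 0.0508 to 0.106 and 0.122, a ratio of group means of 2.34.

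Of the 28 autophagy genes not called, 6 had an adjusted p under 0.1, namely Ulk2, Gabarapl2, Atg2a, Calcoco1, Wipi2 and Atg4b. For 14 of the 28 the 95% interval lay within 0.3 of 0 on the log2 scale. The smallest change among the called genes, 0.34 in Gabarapl1, lay outside that range. The intervals of the other 14 reached past 0.3 on at least 1 side.

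Genes that work around the core machinery were read from the same fit as 7 lists taken from general knowledge of the pathway. Leaving aside the short chaperone-mediated list, their shares of called genes ran from 14.3% to 25%, around the 17.9% of all tested genes. Among 21 other autophagosome formation genes 2 were called higher and 1 lower, with a median log2 change of 0.05. Trp53inp2, a nuclear and autophagosomal scaffold that binds ATG8 proteins, was at 679 and 779 CPM in the Ctrl libraries and at 1322 and 1535 CPM in the WC1 libraries (log2 change 0.97 ± 0.14 SE, adjusted p = 0.021). Tecpr1, which acts between autophagosome and lysosome, had 0.33 (adjusted p = 0.031), and Vmp1, a lipid scramblase of the endoplasmic reticulum, had -0.72 (adjusted p = 0.022). Among 18 genes of autophagosome-lysosome fusion, with a median of -0.10, Stx17 (0.35, adjusted p = 0.036), the fusion protein of the autophagosome, and the tether Epg5 (0.32, adjusted p = 0.045) were called higher. Vamp8, the lysosomal fusion partner of Stx17, was called lower (-0.59, adjusted p = 0.023).

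Among 21 other receptors and adaptors of selective autophagy 4 were called higher and 1 lower, with a median of -0.10. The mitophagy receptor Bnip3 was at 138 and 143 CPM in the Ctrl libraries and at 238 and 309 CPM in the WC1 libraries (log2 change 0.94 ± 0.14 SE, adjusted p = 0.021). Bcl2l13, another mitophagy receptor, had 0.64 (adjusted p = 0.022), and Pink1, the kinase that marks damaged mitochondria, had 0.43 (adjusted p = 0.024). Tbk1, the kinase that phosphorylates Optn and Sqstm1, was called lower (-0.36, adjusted p = 0.049).

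Of 35 genes of mTORC1 and AMPK control, 3 were called higher and 5 lower, with a median of -0.04. Those higher were Deptor, an mTOR-binding protein (0.74, adjusted p = 0.014), Mtor, the kinase that restrains ULK (0.48, adjusted p = 0.021), and the stress-induced Sesn2 (0.57, adjusted p = 0.038). Those lower with the smallest p were the folliculin partners Fnip2 (-0.83, adjusted p = 0.029) and Fnip1 (-0.34, adjusted p = 0.041) and Lamtor3 (-0.49, adjusted p = 0.030), part of the lysosomal platform for mTORC1. Of 21 transcription factors linked to autophagy genes, 1 was called higher and 4 lower, with a median of -0.04. Foxo4 had 0.46 (adjusted p = 0.026), Tfec, an MiT family factor, had -1.81 (adjusted p = 0.013), Cebpb had -0.78 (adjusted p = 0.014) and Nfe2l2 (NRF2), the regulator of antioxidant genes, had -0.35 (adjusted p = 0.045).

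The lysosomal list stood lowest of the 7. Of 40 genes for lysosomal membrane, proton pump and hydrolases, 1 was called higher and 9 lower (25%, beside 17.9% of all tested genes). Both WC1 values were under both Ctrl values for 37 of the 40, beside 36.6% of all tested genes, and the median log2 change was -0.53. The list shares Cd68 with the macrophage markers and Cd63 and Atp6v0d2 with those of lipid-associated macrophages, and the macrophage markers, of which 7 of 12 were called lower, had a median of -0.68. Their part in the lysosomal result was not tested. Smpd1, acid sphingomyelinase, was the one called higher (0.42, adjusted p = 0.029). Among those lower were the proton pump genes Atp6v0e (-0.40, adjusted p = 0.028) and Atp6ap1 (-0.62, adjusted p = 0.030). In TPM the same list had 2 genes called higher and 3 lower and a median of -0.40. All tested genes had 18.7% called there and a median of 0.10. DESeq2 on the recovered reads called 2 higher and 29 lower, beside 27.4% of all tested genes. Of the 10 genes of chaperone-mediated autophagy, a route that needs no autophagosome, Lamp2 was called lower (-0.53, adjusted p = 0.044). The receptor of the route is 1 of its splice forms, and the value covers the gene as a whole. Lamp2 is also in the lysosomal list. The one called higher was Hip1r (0.96, adjusted p = 0.027), which is known as an endocytic adaptor of clathrin and actin and was placed in the list in error. The Hsc70 partner St13, which does belong to it, had 0.28 (adjusted p = 0.070) and was not called. Without Ctrl 1, and likewise without Ctrl 2, limma called 0 genes of the 7 lists, with 10 and 13 lysosomal genes still at an unadjusted p under 0.05. With either WC1 library left out limma called more of the lysosomal genes than with all 4 libraries. In such a fit the spread is estimated from the Ctrl pair alone, and without WC1 1 calls rose across the whole matrix as well.

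**Figure D4:**
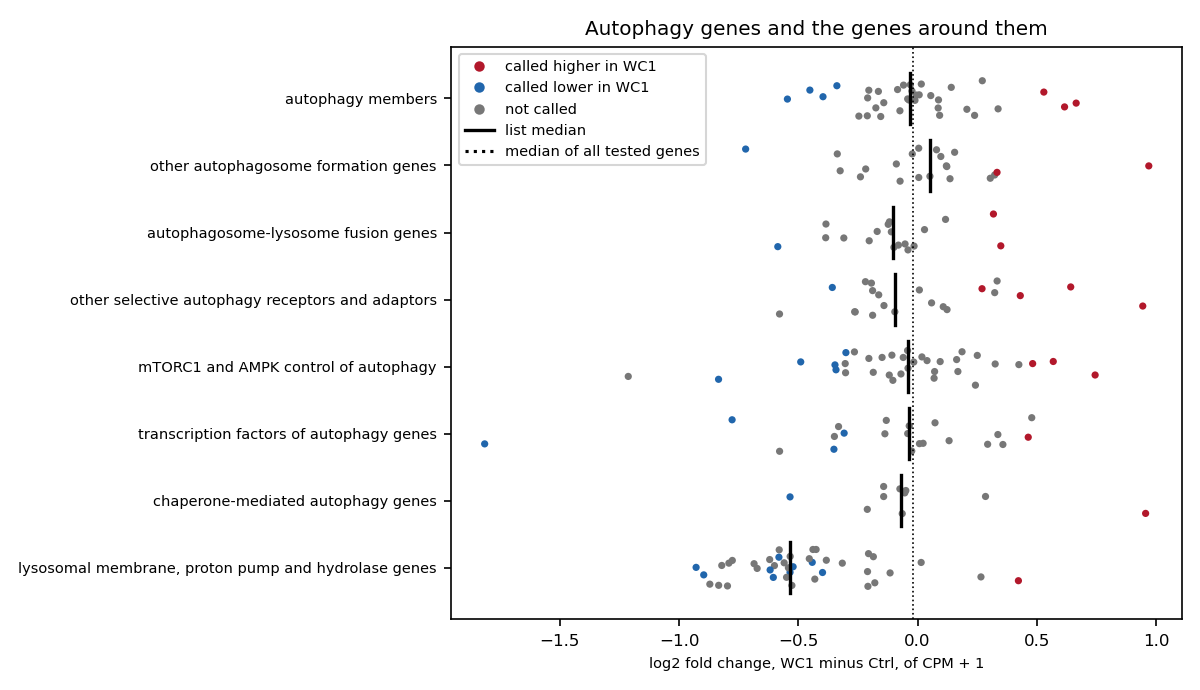
Log2 fold change of CPM + 1, WC1 minus Ctrl, for each tested gene (points, spread vertically for legibility) of the autophagy genes and of 7 lists around them, with list medians as black bars and the median of all tested genes, -0.02, as a dotted line. The autophagy genes centre on -0.03, and the lysosomal list centres on -0.53 with 37 of its 40 genes lower in both WC1 libraries than in both Ctrl libraries.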

How the data were processed

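Poly(A) RNA of epididymal adipose tissue was made into directional libraries by the authors, and 4 libraries were analysed here, 2 per group as their titles name them. The submitters' processing notes name fastp, HISAT2, StringTie and the mm10 build without their roles, and the sources used here give no read counter, strand setting or annotation. The authors deposited a gene matrix called CPM, treated here as a signal proportional to reads, because its columns sum to between 97.6% and 105% of what plain CPM would give. All of its values (100%) were whole multiples of 1 read to within 0.01 read. The authors also deposited a TPM matrix, corrected for transcript length. In both matrices 0 columns belonged to no sample.

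The totals ranged from 61465029 to 90965297 recovered reads per library, and 3 reads corresponded to at most 0.0492 CPM (counting error only). Replicate libraries differed by more than counting noise (the chi-square statistic divided by its degrees of freedom was 33.9 for Ctrl and 83.7 for WC1), and none was treated as a duplicate.

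Genes that reached 0.5 CPM in 2 or more of the 4 libraries were tested (14106 kept, 10315 removed) on log2(CPM + 1), which understates changes of low genes, by limma 3.58.1 (trend, two-sided, R 4.3.3) and p-values were adjusted by Benjamini and Hochberg over every tested gene (threshold 0.05). No replicate block was used. The scripts were tested on simulated data. Alternatives varied the pseudocount, filter, scaling, TPM, block and libraries, and used edgeR 4.0.16 and DESeq2 1.42.0 on the recovered reads. The members and lists were chosen with earlier results of these data known. All 35 members are accounted for. Full values are given for called members and for the member with the smallest p in each role group, and from each surrounding list the called genes with the 3 smallest p in each direction are named, while markers are described as lists. A few items that these rules would name are not reported here. List symbols absent from the matrix were matched through RefSeq synonyms (5 genes). Gene models were GENCODE and RefSeq annotations of GRCm38, the assembly that mm10 names.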

Additional observations from a re-analysis of the deposited data

How the results depend on the processing

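Over 17 alternatives, 525 of 594 values of the 35 autophagy genes kept their direction and their side of the threshold. So did 95 of the 119 values of the 7 called genes, and no called gene turned direction. The groups of these 7 did not overlap, so leaving out 1 library could not turn them. The filter settings leave a log2 change as it is. All 7 calls were lost without Ctrl 1 and without Ctrl 2. Leaving out 1 library at a time gave 0 to 6 autophagy genes higher and 0 to 5 lower, and 2 to 2424 genes higher and 4 to 2748 lower in the whole matrix. Without a filter on low values limma called 2 autophagy genes higher (Map1lc3a, Optn) and 0 lower (13 of 35 at an unadjusted p under 0.05, and 4 lower by edgeR and by DESeq2 with the filter), and 788 genes higher and 532 lower in the matrix. The TPM matrix gave 7 autophagy genes higher and 1 lower, and 583 genes lower in the matrix. DESeq2 gave 6 autophagy genes higher, and 1736 genes lower in the matrix, and quantile normalization left 2 autophagy genes lower (Atg5, Sqstm1). With the replicate number as a block 5 autophagy genes were higher (Atg2a and Calcoco1 added) and 4 lower, and 1769 and 1497 genes in the matrix. Nothing in the labels ties libraries of equal number together, and with 2 pairs, whose within-group differences correlated at 0.194 across genes, the numbers do not establish a pairing. In TPM the factor per library differed by 0.141 on the log2 scale between WC1 and Ctrl, and each autophagy gene carries that offset before 1 is added. The cause of the other shifts was not tested. With each library's TPM to CPM factor divided out, the same 7 autophagy genes were called, by construction for these genes, but 1302 genes were higher and 988 lower in the matrix. The number of genes called in the surrounding lists moved as well. It was 10 for the lysosomal list, 8 for mTORC1 and AMPK control and 5 for the other receptors. For the transcription factors it was 5, for fusion 3 and for other formation genes 3. In the same order it became 31, 10, 6, 9, 5 and 6 with DESeq2, which called 27.4% of all tested genes. Without the filter it became 3, 2, 3, 3, 1 and 3, beside 7.28% of all tested genes. Without WC1 1 it rose in each of these lists, as calls did in the whole matrix. With the replicate block, which called 23.15% of all tested genes, it was 20 for the lysosomal list, 10 for the transcription factors and 5 for fusion.

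Some genes that were not called changed sign, in TPM with the offset named above. In TPM these were Ulk1 (0.094), Atg13 (0.079), Pik3c3 (0.062), Pik3r4 (0.13), Atg14 (0.12), Atg3 (0.12), Atg7 (0.11), Atg16l1 (0.051) and Map1lc3b (0.10). Pik3r4 came to 0.013 with median-of-ratios scaling, edgeR and DESeq2, to 0.012 with TMM and to 0.0069 with quantile normalization, and Atg14 to 0.0066, 0.0062, 0.0064 and 0.0064 with median-of-ratios scaling, edgeR, DESeq2 and TMM. Quantile normalization gave 0.0044 for Atg3, -0.036 for Atg10 and 0.038 for Map1lc3b. With 1 library left out the log2 change ran from -0.16 to 0.0098 for Pik3c3, from -0.045 to 0.034 for Pik3r4, from -0.12 to 0.095 for Atg14, from -0.056 to 0.0087 for Atg3, from -0.12 to 0.054 for Atg7, from -0.0034 to 0.017 for Atg10, from -0.59 to 0.18 for Atg4a and from -0.025 to 0.056 for Nbr1. Whether read depth limits these calls was not tested.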
